A study of Homo sapiens with 42 samples.

Results

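The R-spondin receptor axis was followed here through chromatin accessibility at 6 genes: the receptors LGR4, LGR5 and LGR6, the ubiquitin ligases RNF43 and ZNRF3, and the feedback gene AXIN2. The members were all regions that the annotated count tables assigned to 1 of these symbols, 134 of 242490 annotated regions. PC9 contributed 37 of them, H1975 41, HCC827 14 and HCC2935 42. LGR6 held 43 regions, RNF43 28, AXIN2 25, ZNRF3 16, LGR4 12 and LGR5 10. The genes were chosen by measured values, since an LGR5 intron opened in drug-tolerant persister (DTP) cells of the 4 lines, so the LGR5 values in DTP against control are a description and carry no test. The other contrasts reuse these DTP or control libraries, so LGR5 is described without a p there too. All regions were 502 bases wide, so their levels can be set beside each other within a line.

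The series holds 42 ATAC-seq libraries in 14 groups of 3 from PC9, H1975, HCC827 and HCC2935, established EGFR-mutant lung adenocarcinoma lines. In each line, control cells were grown drug free for 21 days and then in DMSO for 3 days, and DTP cells were those left after 24 days in 500 nM osimertinib, an inhibitor of mutant EGFR. The combo group received 500 nM osimertinib for 21 days, followed by 3 days with the small-molecule inhibitor AZD5153 at 150 nM. If osimertinib stayed in the medium for those 3 days is not stated in the labels or methods. In PC9 and H1975 alone, a further group was kept drug free for 21 days and then received 150 nM AZD5153 for 3 days. DTP cells are those that survived, so a change within cells and a change in which cells remained cannot be told apart. No RNA is read here, and accessibility is not a level of transcript. The labels call the libraries ATAC-seq, but their extraction text describes chromatin immunoprecipitation for acetylated histone H3, and the values are read here as ATAC-seq.

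R-spondins are secreted proteins that strengthen Wnt signalling. They bind LGR4, LGR5 or LGR6 together with RNF43 or ZNRF3, and so clear from the cell surface the ligases that would otherwise mark the Frizzled receptors for degradation. AXIN2 is a scaffold of the complex that destroys beta-catenin and is itself a target of the pathway, and LGR5 and RNF43 are also known targets. LGR5 is best known as a marker of stem cells in the intestine and other epithelia, LGR4 is broadly expressed, and LGR6 marks stem cells of skin and progenitors in the lung.

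The starts of LGR4 and RNF43 were open in every line, and their sequences show which part of each gene the strongest member regions covered. The reference table held 6 promoters of 3 of the 6 genes (LGR4, LGR6 and RNF43). The 250 bases before 3 of these starts are given 5′ to 3′ on the strand of the gene, from RefSeq on GRCh38.p14, with motif matches in capitals. The LGR4 window, chr11:27472791-27473040 on the minus strand, lay whole inside a member region in all 4 lines. The first RNF43 window, chr17:58417535-58417784 on the minus strand, lay whole inside a member region in PC9, H1975 and HCC827 and for 196 of its bases in HCC2935. The second RNF43 window, chr17:58402722-58402971 on the minus strand, precedes a start further inside the gene and lay in a member region in HCC2935 only.
LGR4: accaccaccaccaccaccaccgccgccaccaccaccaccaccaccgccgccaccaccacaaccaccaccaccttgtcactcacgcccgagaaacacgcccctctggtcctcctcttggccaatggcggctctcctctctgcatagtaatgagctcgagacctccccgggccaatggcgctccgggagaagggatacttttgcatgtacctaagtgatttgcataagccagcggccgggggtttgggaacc
RNF43 first start: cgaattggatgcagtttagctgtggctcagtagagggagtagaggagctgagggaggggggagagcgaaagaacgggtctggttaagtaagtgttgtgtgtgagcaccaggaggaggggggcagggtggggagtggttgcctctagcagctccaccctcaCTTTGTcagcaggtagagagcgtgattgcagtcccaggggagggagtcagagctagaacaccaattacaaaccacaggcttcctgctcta
RNF43 inner start: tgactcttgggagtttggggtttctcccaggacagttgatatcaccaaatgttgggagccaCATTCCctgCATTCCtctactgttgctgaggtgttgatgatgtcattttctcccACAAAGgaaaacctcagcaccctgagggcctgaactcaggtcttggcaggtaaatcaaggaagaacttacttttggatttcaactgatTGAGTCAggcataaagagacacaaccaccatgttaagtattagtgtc
The letters searched on both strands were CTTTGA or CTTTGT for TCF/LEF, the factors that carry beta-catenin to DNA, TGANTCA for AP-1 and GGAATG for TEAD, and none of these overlapped in the windows. The first RNF43 window held 1 TCF/LEF match, CTTTGT, 90 bases before the start. The inner RNF43 window held a TCF/LEF match (ACAAAG), an AP-1 match (TGAGTCA) and 2 TEAD matches (CATTCC), and the LGR4 window held none. Among 35116 promoter windows of this length, 22.8% held the TCF/LEF letters, 6.57% the AP-1 letters and 11.9% the TEAD letters.

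Libraries held 1724680 to 10062505 counts in all over the regions of their line. HCC827 libraries were the shallowest, with 1724680 to 4242868, and its replicates were the furthest apart, with a biological coefficient of variation of 45.05% against 10.15% in HCC2935. In PC9 and H1975 the libraries of a group differed by little more than counting noise (0.988% and 3.20%), so their p-values may measure technical spread only, and calls there are also given with the 3 libraries of a group summed and the dispersion of HCC2935. Promoters of all 5 epithelial markers (EPCAM, KRT8, KRT18, KRT19, CDH1) were open in each line, and those of the 3 leukocyte markers were in no annotated table. Of 3 fibroblast markers, COL1A1 had a promoter region in all 4 lines (20.9 to 27.0 CPM) and PDGFRB in PC9 and H1975, and of 2 endothelial markers, CDH5 had one in PC9, H1975 and HCC2935 (11.5 to 21.1 CPM) and PECAM1 in PC9 and H1975. Their part in the results was not tested. Values below are CPM, counts scaled to a common library size within each line.

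Of the LGR5 members, the region that opened furthest in DTP cells was the same one in each of the 4 lines, and the annotated tables held no region at its promoter outside PC9. It lies in intron 16 of 17, 142.1 kb downstream of the gene start in PC9, close to the 3′ end of a gene that spans 147182 bases (chr12:71439129-71586310, GRCh38). It was called at chr12:71581090-71581591 in H1975, chr12:71581120-71581621 in HCC827, chr12:71581174-71581675 in HCC2935 and chr12:71581183-71581684 in PC9. These windows overlapped, so they are 1 site read in 4 lines.

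In H1975 the intron 16 region was nearly closed in control cells, at 0.309, 0.135 and 0.135 CPM, and reached 15.995, 19.7 and 17.2 CPM in DTP cells. The log2 fold change was 6.44 (SE 0.73, n = 3 and 3). It rested on 4 counts in all controls against 453 in DTP, a ratio of 94.4 with a 95% exact interval of 36.6 to 348.1 that covers counting error only. In HCC827 the control libraries held 0.996, 2.54 and 1.26 CPM and the DTP libraries 25.8, 26.0 and 43.4 CPM, a log2 fold change of 4.32 (SE 0.55). With the replicate number as a block, which the HCC827 libraries called for, it was 4.35. Both groups were far apart in these lines. The HCC827 DTP libraries held the highest CPM of the 42. Each line was scaled on the counts of its own tested regions, so this order across lines is approximate.

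HCC2935 control libraries held 1.31, 0.591 and 1.88 CPM and DTP libraries 20.1, 20.5 and 17.2 CPM, a log2 fold change of 3.92 (SE 0.40). PC9 moved least: controls held 1.91, 2.28 and 0.496 CPM and DTP libraries 6.32, 6.19 and 6.76 CPM, a log2 fold change of 2.05 (SE 0.39). No DTP library overlapped a control library in any line, a separation that 56.1% of all tested regions showed in H1975, 47.2% in HCC2935, 41.6% in PC9 and 14.3% in HCC827, in either direction. Among all regions tested in its line, the fold change stood at percentile 99.98 in HCC827, 99.9 in H1975, 99.6 in HCC2935 and 97.6 in PC9. In HCC827 it was rank 13 of 82309 from the top, and in PC9 rank 2980 of 126506, so in PC9 many regions opened further. The authors' peak lists, made per library, held a peak there in 3 of 3 DTP libraries of each line. Among controls they held one in 1 of 3 libraries of PC9 and of HCC827 and in 0 of 3 of H1975 and HCC2935.

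**Figure D1:**
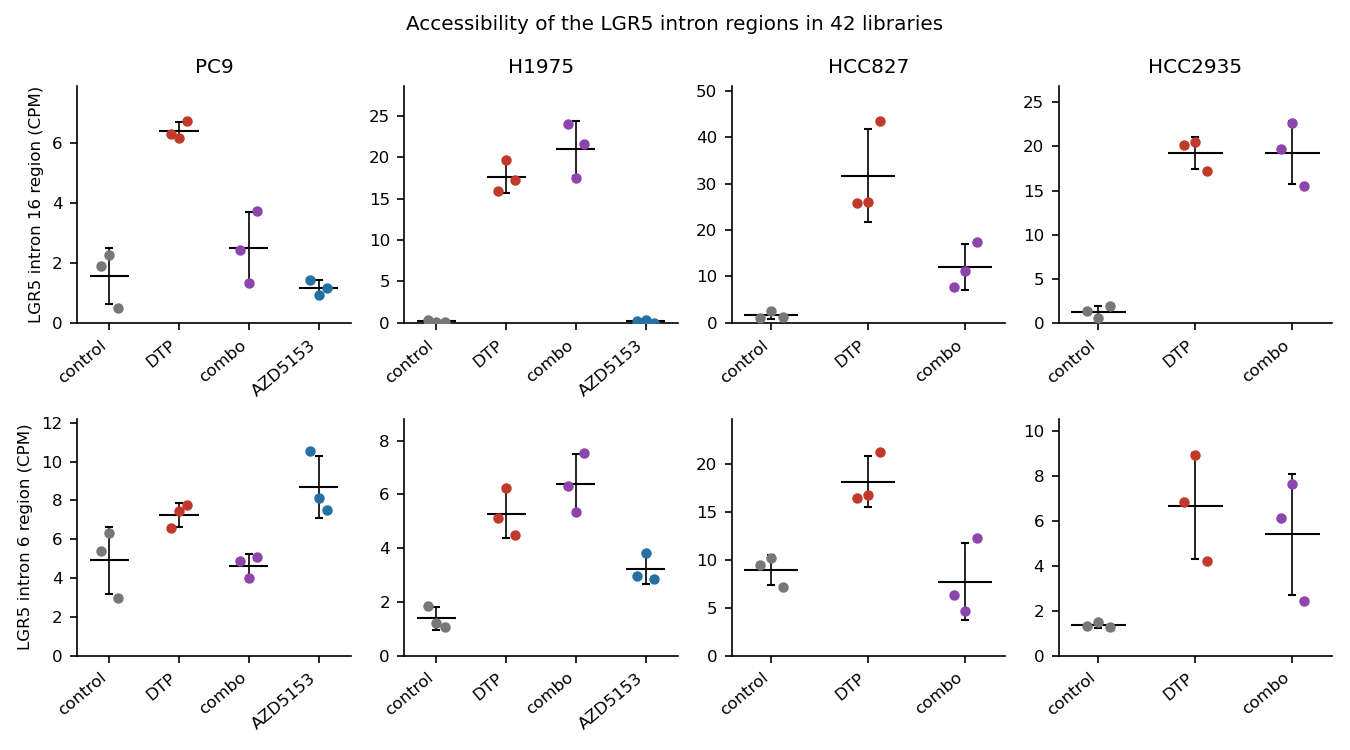
Accessibility in CPM of the LGR5 intron 16 region (top row) and intron 6 region (bottom row) in each library, with 1 panel per line and its own vertical axis from 0. Dots are libraries, lines are group means and bars are 1 SD (n = 3). In intron 16 every DTP library sits above every control library of its line, from 6.19 CPM in PC9 to 43.4 CPM in HCC827.

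A second LGR5 region lay in intron 6 of 17, at chr12:71556877-71557378 in PC9 and in overlapping windows in the other lines. Its control levels differed by line, from 1.08 to 10.2 CPM over the control libraries. In HCC2935 it went from 1.31, 1.48 and 1.25 CPM in controls to 6.84, 8.93 and 4.20 CPM in DTP cells, a log2 fold change of 2.30 (SE 0.47). In H1975 controls held 1.86, 1.21 and 1.08 CPM and DTP libraries 5.12, 6.24 and 4.48 CPM, a log2 fold change of 1.94 (SE 0.30). In both lines the groups did not overlap.

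HCC827 controls held 9.46, 10.2 and 7.17 CPM in intron 6 and DTP libraries 16.5, 16.8 and 21.2 CPM, a log2 fold change of 1.04 (SE 0.41) that was 1.03 with the replicate block. PC9 controls held 5.40, 6.34 and 2.98 CPM and DTP libraries 6.56, 7.48 and 7.76 CPM, a log2 fold change of 0.58 (SE 0.25). The intron 6 fold change was thus below that of intron 16 in each line.

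The start of LGR5 could be read in PC9 and HCC2935. In PC9 the promoter region, chr12:71439567-71440068, held 5.40, 5.07 and 4.22 CPM in controls and 6.08, 5.41 and 5.51 CPM in DTP cells, a log2 difference of 0.22. A region upstream of the gene start, chr12:71415579-71416080 in PC9, lies in an intron of the neighbouring gene TSPAN8 and had a log2 difference of 0.23 in PC9, which became -0.02 without control replicate 2. In the full count tables alone, the matching window had log2 differences of 0.85 in H1975, where it went from 1.86, 1.88 and 2.70 CPM to 3.97, 3.52 and 4.25 CPM, and 0.72 in HCC2935. In HCC2935, 2 windows close to the LGR5 start were in the full count table alone, at low levels, with log2 differences of 1.05 and 1.00. An LGR5 intron 1 region is assigned to TSPAN8 in the tables and so was no member. Its log2 difference was -0.05 in H1975 and 0.00 in HCC827.

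**Figure D2:**
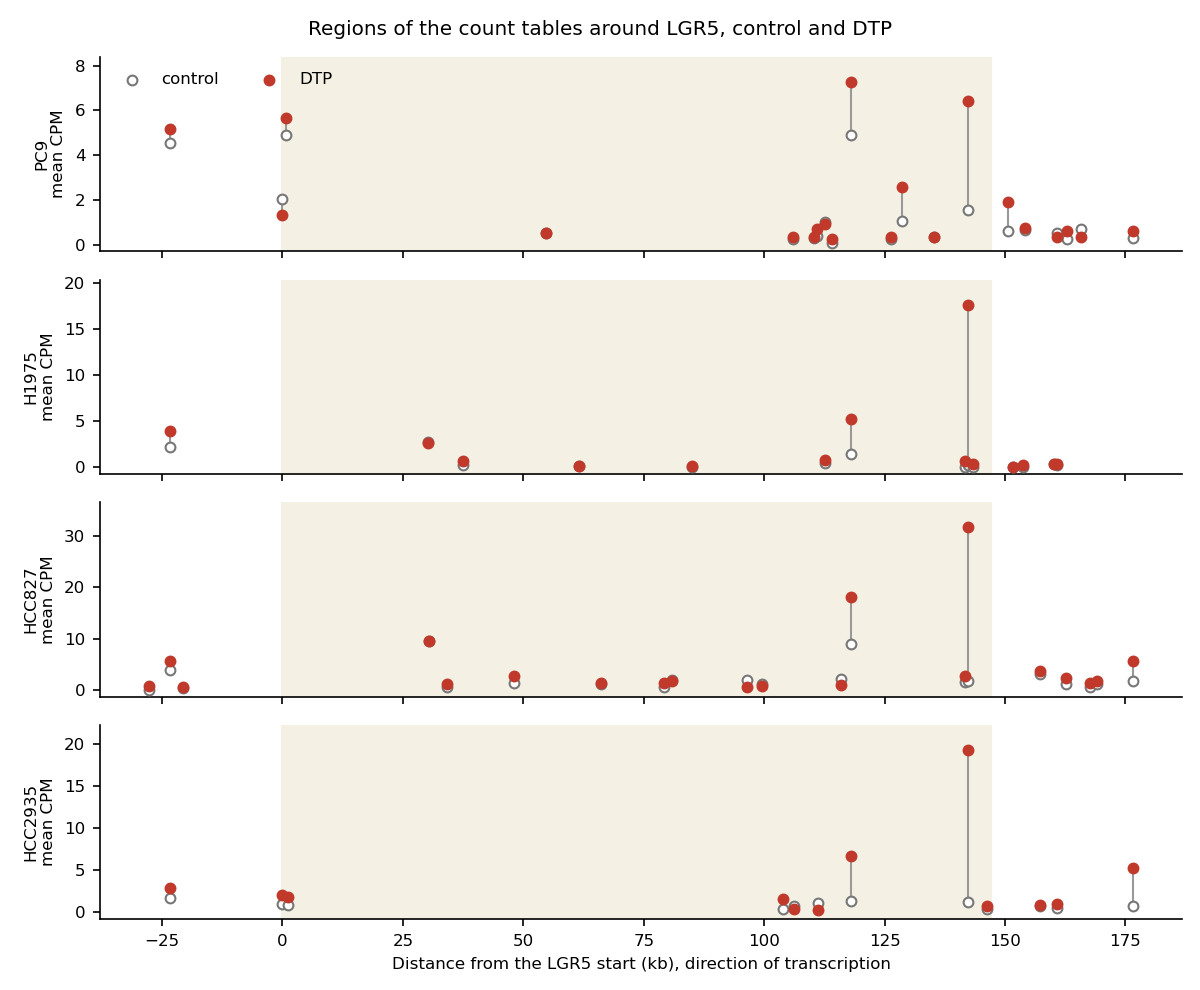
Mean CPM of every count-table region from 30 kb before to 30 kb after LGR5, by distance from the gene start in kb, in control cells (open circles) and DTP cells (filled), 1 panel per line. The shaded span is the gene. Intron 16 separates in each line, at 17.7 CPM in DTP against 0.193 CPM in control cells of H1975. In HCC2935 the ZFC3H1 promoter, beyond the 3′ end, separates as well (log2 2.84).

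Over the 14 groups, the intron 16 mean was highest in HCC827 DTP cells, at 31.7 ± 10.1 CPM (SD, n = 3). H1975 combo (21.0 ± 3.32), HCC2935 combo (19.3 ± 3.58), HCC2935 DTP (19.3 ± 1.83) and H1975 DTP (17.7 ± 1.904) followed, and these 4 did not differ beyond their spread. HCC827 combo held 12.1 ± 4.93, PC9 DTP 6.42 ± 0.298 and PC9 combo 2.50 ± 1.203. The remaining 6 groups, all without osimertinib, lay between 0.193 and 1.60 CPM. Each line was scaled on its own regions, so the order across lines is approximate.

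The pattern over groups was compared with that of 41465 regions matched across the 4 lines, by Pearson's correlation of the 14 group means of log2 CPM centred within each line. The 5 most similar were assigned to METTL8 (0.993), ARNT2 (0.987), VWA3B (0.983), ZMIZ1-AS1 (0.982) and FNIP2 (0.980). These values share libraries and depth and describe likeness only. The LGR5 intron 6 region had a correlation of 0.788 and rank 1720, while the median of all matched regions was 0.052. With 80% overlap asked for in the matching in place of 50%, VWA3B and ZMIZ1-AS1 stayed among the 5, which then also held WDPCP (0.979), BACH2 (0.978) and SV2C (0.975).

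Outside LGR5, DTP cells differed from control cells at many members, in both directions, and no gene moved as a whole. In PC9, 17 of 33 regions passed the test (edgeR quasi-likelihood, Benjamini-Hochberg adjusted p over all regions of the line), 7 higher and 10 lower, where 31.7% of all tested regions were called. In H1975, 29 of 39 passed, 12 higher and 17 lower, against 51.9% of all. In HCC2935, 18 of 40 passed, 13 higher and 5 lower, against 37.3% of all. The annotated tables keep stronger regions, and a test of the annotated regions alone called 39.5% of them in PC9, 65.3% in H1975 and 47.1% in HCC2935. The members' shares of 51.5%, 74.4% and 45% lie around these, and nothing particular to the axis is read from them. With libraries summed and the dispersion of HCC2935, 10 regions were called in PC9 (19.4% of all) and 23 in H1975 (40.2% of all), and scaling by library size alone turned the PC9 split to 9 higher and 6 lower.

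In HCC827, 0 of 11 members outside LGR5 were called by edgeR and 0.0219% of all regions, while 7.46% of all regions had an unadjusted p under 0.05. With the replicate number as a block, 2 HCC827 members were called (3.88% of all), both higher: an LGR6 intron 6 region (log2 1.24, adjusted p 0.0347) and a region in an intron of HSF5 assigned to RNF43 (1.41, adjusted p 0.0212). The median log2 difference of members outside LGR5 was 0.28 in HCC2935, -0.01 in HCC827, -0.02 in PC9 and -0.22 in H1975, where those over all regions were -0.01, -0.09, 0.01 and 0.02.

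**Figure D3:**
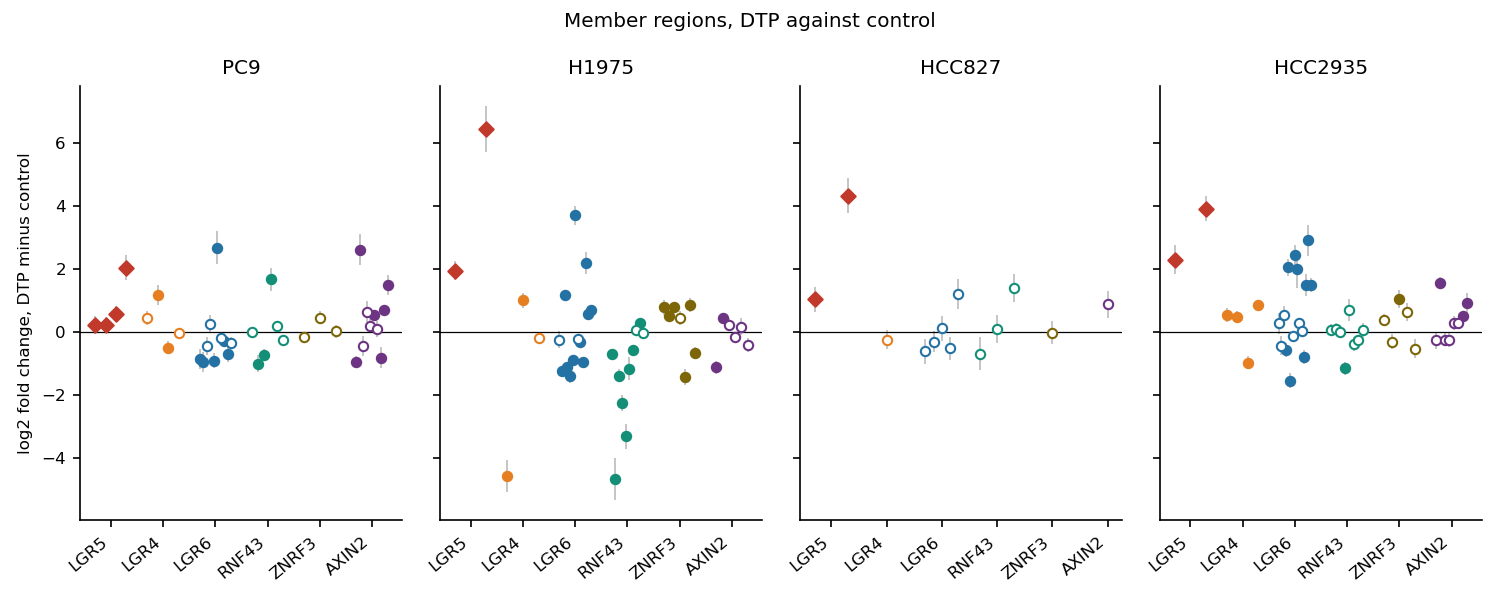
Log2 fold change of DTP over control for each tested member region, by gene, in 1 panel per line, with bars of 1 SE. Filled points were called at an adjusted p under 0.05, open points were not, and diamonds are LGR5 regions, shown as a description. LGR6, RNF43 and AXIN2 hold points on both sides of 0, and LGR5 intron 16 stands highest in H1975 (6.44), HCC827 (4.32) and HCC2935 (3.92).

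LGR6, the receptor with the most regions, held regions that rose and regions that fell in each of the 3 lines with calls. In intron 3 the PC9 region chr1:202234192-202234693 went from 0.635, 1.01 and 0.744 CPM in controls to 6.56, 4.13 and 5.26 CPM in DTP cells (log2 2.68, SE 0.520, adjusted p 5.69e-09). The H1975 region at chr1:202234367-202234868 went from 0.773, 0.942 and 1.35 CPM to 13.2, 14.1 and 13.4 CPM (log2 3.70, SE 0.316, adjusted p 3.69e-40). In HCC2935, at chr1:202234132-202234633, controls held 1.75, 2.36 and 2.19 CPM and DTP libraries 13.1, 10.1 and 10.9 CPM (log2 2.44, SE 0.323, adjusted p 1.81e-09). The groups were apart in the 3 lines, and in PC9 this site rose further than LGR5 intron 16. HCC827 had a matching window in the full count table alone, at a log2 difference of 1.64 that did not pass.

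A further LGR6 site in intron 4 rose in H1975 at chr1:202241295-202241796, from 1.08, 1.21 and 0.809 CPM to 5.37, 4.20 and 4.81 CPM (log2 2.19, adjusted p 1.09e-11), and in HCC2935 by 1.48 (adjusted p 0.000376). The intron 6 site differed by line. In HCC2935, at chr1:202283424-202283925, it rose from 0.655, 1.48 and 0.626 CPM to 7.60, 8.10 and 4.96 CPM (log2 2.91, adjusted p 6.55e-08), and in H1975 by 0.57 (adjusted p 0.00482), a call lost without control replicate 3 (0.36) and with libraries summed. In PC9 all 3 DTP libraries (10.0 to 10.9 CPM) lay below the controls (11.4 to 15.2 CPM), with a log2 difference of -0.34 that did not pass. The difference between lines was not tested.

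In HCC2935 chr1:202210278-202210779 went from 2.84, 5.02 and 3.13 CPM to 13.9, 15.2 and 15.8 CPM (log2 2.05, adjusted p 3.27e-09), and its H1975 counterpart from 7.89, 9.15 and 10.2 CPM to 19.5, 20.6 and 21.5 CPM (log2 1.17, adjusted p 1.19e-17). Downstream of it, the promoter region at chr1:202213319-202213820 fell in HCC2935 from 12.4, 12.4 and 12.2 CPM to 5.32, 3.97 and 3.43 CPM, by 1.54 on the log2 scale, and in H1975 by 1.11. A region before these, in LGR6 intron 1 at chr1:202200249-202200750 in H1975, fell from 15.2, 11.97 and 15.2 CPM to 5.89, 7.26 and 4.81 CPM, by 1.23. In PC9 the region there fell by 0.94 (adjusted p 0.00787), a call that was lost without DTP replicate 2. So in H1975 and HCC2935 neighbouring LGR6 promoter regions moved in opposite directions. Of all LGR6 regions, 1 of 10 rose and 5 fell in PC9, 5 of 13 rose and 6 fell in H1975, and 6 of 15 rose and 3 fell in HCC2935. Over all tested regions, 15.4% rose and 16.4% fell in PC9, 24.9% and 27% in H1975, and 18.7% and 18.6% in HCC2935. These shares also stand beside the counts of RNF43, ZNRF3 and AXIN2 below, and no gene-wide direction is read from them.

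**Figure D4:**
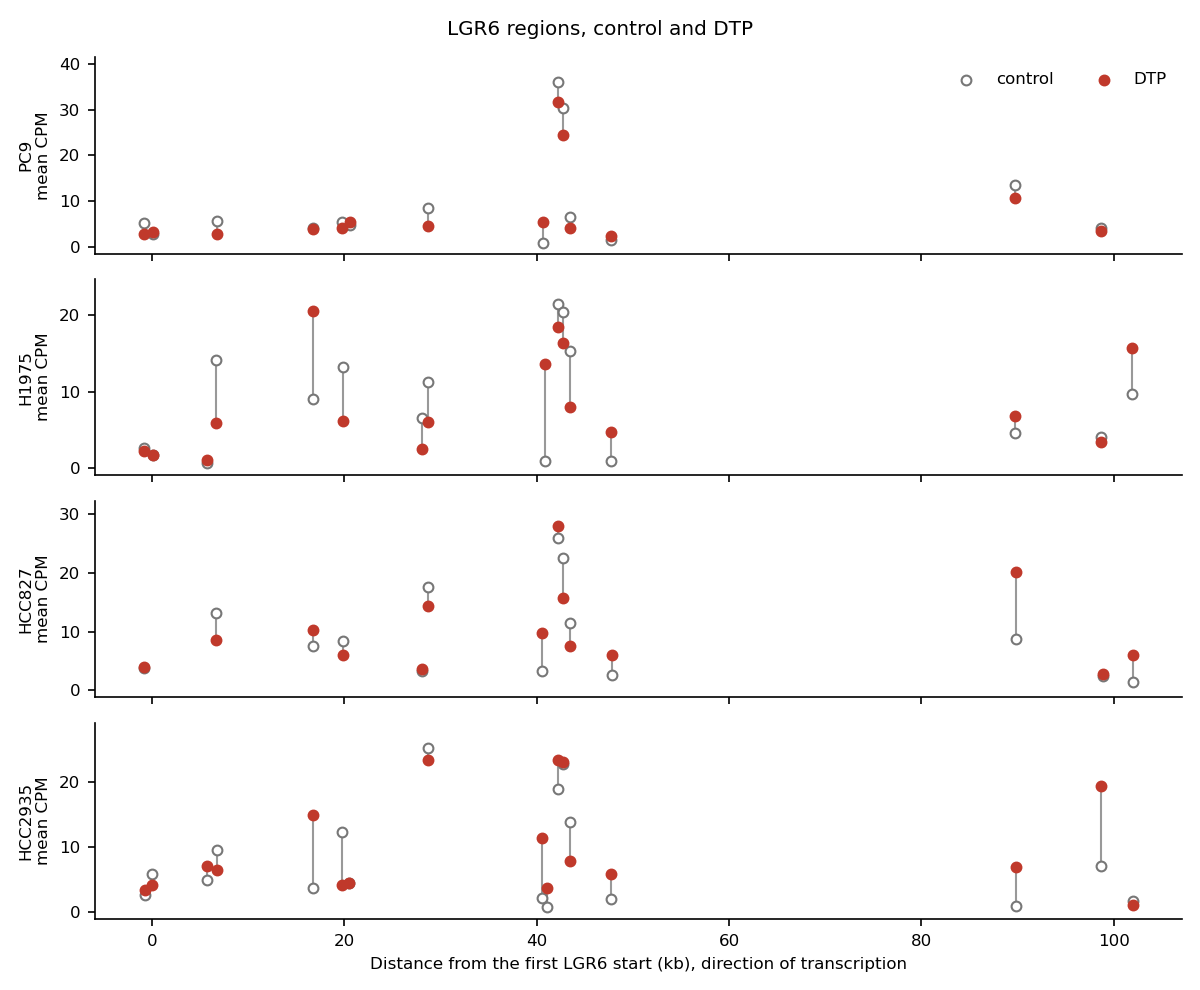
Mean CPM of the LGR6 regions by distance in kb from the first LGR6 start, in control cells (open circles) and DTP cells (filled), 1 panel per line. The intron 3 region rises from 1.02 to 13.6 CPM in H1975 and from 2.10 to 11.4 CPM in HCC2935, while the strongest regions, in exons nearby, move little.

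LGR4 was read mainly at its promoter, which held the printed window. DTP and control means there were 32.0 and 37.6 CPM in HCC827, 23.2 and 26.5 CPM in H1975, and 37.7 and 37.8 CPM in PC9, and none of these differences passed. With the medians of 10 Mb regions removed, the PC9 value was -0.26 and the H1975 value -0.51, and both were called. In HCC2935 the promoter region chr11:27472646-27473147 rose from 12.2, 14.8 and 15.96 CPM to 27.5, 23.5 and 25.6 CPM (log2 0.85, adjusted p 1.94e-05). The 278 tested regions in the same 10 Mb of chromosome 11 had a median log2 difference of 0.90 in that line, and with regional medians removed the LGR4 promoter differed by 0.06. Copy number was not measured.

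Just inside LGR4, a second promoter region had opposite signs in PC9 and H1975. At chr11:27472013-27472514 in H1975 it rose from 2.63, 2.69 and 1.89 CPM to 5.25, 4.31 and 4.93 CPM (log2 1.00, adjusted p 8.64e-05), and in PC9 it fell by 0.50 (adjusted p 0.0429). The PC9 call was lost without control replicate 2 or 3 (adjusted p 0.0760 and 0.237) or DTP replicate 2 or 3 (0.0534 and 0.244), by DESeq2 and with libraries summed. In intron 1, chr11:27401612-27402113 fell in H1975 from 8.35, 9.28 and 8.09 CPM to 0.256, 0.794 and 0 CPM, by 4.55 on the log2 scale (SE 0.507, adjusted p 3.46e-32), where the DTP libraries held 9 counts in all against 183. The same site fell in HCC2935 from 16.2, 13.0 and 15.96 CPM to 8.93, 7.77 and 6.30 CPM, by 0.97 (adjusted p 0.000165). Another intron 1 region of PC9, chr11:27395865-27396366, rose from 2.54, 2.79 and 2.48 CPM to 5.35, 6.45 and 6.01 CPM (log2 1.17, adjusted p 0.000809). The last 2 regions were singled out after their values were seen.

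RNF43, the ligase gene with most regions, had an open first start in every line, and several other regions assigned to it fell in H1975. Its promoter held 49.0 CPM in DTP and 57.7 CPM in control cells of HCC2935, 43.9 and 38.2 CPM in PC9, 34.6 and 32.7 CPM in HCC827, and 47.2 and 45.6 CPM in H1975, and none of these differences passed (log2 0.21, adjusted p 0.0736 in PC9 and -0.24, adjusted p 0.0689 in HCC2935). The outcome depended on the setting. The PC9 rise passed by library size alone, with regional medians removed, at a mean of at least 50 counts, in the annotated regions alone, with only the groups compared and without control replicate 1 (adjusted p 0.0133 to 0.0444). The HCC2935 fall passed at a mean of 50 counts, in the annotated regions alone, with the replicate block and without control replicate 3 (0.00447 to 0.0474), and H1975 passed as a rise by library size alone (0.000402) and at a mean of 50 counts (0.0209). In H1975, 7 of 10 RNF43 regions fell and 1 rose, where 27% of all tested regions fell and 24.9% rose. The region chr17:58387680-58388181, in an intron of the antisense gene TSPOAP1-AS1, fell from 5.88, 4.98 and 5.12 CPM to 0.256, 0.340 and 0 CPM, by 4.65 on the log2 scale (SE 0.676, adjusted p 1.07e-22), with 5 DTP counts in all.

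In the same line chr17:58399921-58400422, annotated 2 to 3 kb from a start, fell from 6.80, 7.26 and 4.99 CPM to 0.896, 0.340 and 0.672 CPM, by 3.31. The region chr17:58394491-58394992, in an exon of TSPOAP1-AS1, fell from 7.27, 8.88 and 7.15 CPM to 1.92, 1.70 and 1.34 CPM, by 2.23. The same exon site fell in HCC2935 from 16.6, 16.5 and 15.6 CPM to 7.60, 8.44 and 5.92 CPM, by 1.14 (adjusted p 1.52e-05), the 1 RNF43 region of 8 called there. In PC9 the region at chr17:58387679-58388180 fell from 8.26, 7.86 and 6.20 CPM to 4.86, 3.35 and 2.75 CPM, by 1.00 (adjusted p 0.000946). An intron region of the antisense gene, chr17:58411273-58411774, rose in PC9 from 2.22, 1.77 and 1.24 CPM to 5.59, 6.19 and 4.76 CPM (log2 1.67, adjusted p 1.38e-05). It was singled out after its values were seen.

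ZNRF3, the partner ligase, had 4 of 7 regions higher and 2 lower in H1975, 1 of 5 higher in HCC2935, and no call among 3 in PC9 and 1 in HCC827. Its promoter mean in DTP and control cells was 14.2 and 15.8 CPM in PC9, 12.6 and 13.0 CPM in HCC827, and 13.9 and 10.8 CPM in HCC2935, with no call. In H1975 it went from 17.8, 11.7 and 13.5 CPM to 18.6, 22.6 and 19.0 CPM (log2 0.50, adjusted p 4.24e-05), a call lost with libraries summed. In intron 1, chr22:28894211-28894712 rose in HCC2935 from 3.28, 3.25 and 5.01 CPM to 9.69, 6.45 and 7.44 CPM (log2 1.05, adjusted p 0.00219), a region chosen after its values were seen.

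AXIN2 had 4 of 10 regions higher and 2 lower in PC9, 3 of 8 higher in HCC2935, and 1 of 6 each way in H1975. Its 1 region in HCC827 was not called. It rose at 1 site of its intron 3 in PC9 and HCC2935 and fell at another in PC9. In PC9 chr17:65547303-65547804 went from 1.59, 1.01 and 0.248 CPM to 4.62, 8.51 and 4.00 CPM (log2 2.62, SE 0.493, adjusted p 2.43e-09). The matching HCC2935 region at chr17:65547207-65547708, chosen for that match, went from 7.43, 9.74 and 8.14 CPM to 26.0, 21.3 and 27.5 CPM (log2 1.57, adjusted p 8.35e-10). Nearby in the same intron, chr17:65542560-65543061 fell in PC9 from 16.2, 11.7 and 11.9 CPM to 5.35, 7.22 and 7.76 CPM, by 0.95 (adjusted p 2.04e-05). A distal region assigned to AXIN2 but lying in an intron of CEP112, chr17:65677884-65678385, rose in PC9 from 2.54, 2.03 and 2.73 CPM to 8.51, 7.48 and 4.76 CPM (log2 1.50, adjusted p 6.40e-06). In H1975 an intergenic region, chr17:65514023-65514524, fell by 1.11.

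The AXIN2 promoter means in DTP and control cells were 6.68 and 7.58 CPM in H1975, 14.1 and 7.57 CPM in HCC827, and 14.7 and 12.1 CPM in HCC2935, none called, though the HCC827 libraries did not overlap (12.5 to 17.2 against 5.72 to 8.97 CPM). In PC9 the promoter rose from 9.53, 10.4 and 11.2 CPM to 16.5, 12.4 and 16.3 CPM (log2 0.53, adjusted p 0.00800), a call lost by DESeq2, with libraries summed and without DTP replicate 1.

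Promoters of 39 other Wnt pathway genes (R-spondins, co-receptors and cytoplasmic components, nuclear factors, feedback genes and targets) moved in both directions as well. In DTP against control, 6 of 78 tested promoter regions rose and 7 fell in PC9, where 15.1% of all promoter regions rose and 11% fell. In H1975, 20 of 77 rose and 20 fell (26.8% and 23.1% of all), and in HCC2935, 12 of 59 rose and 10 fell (21.2% and 11.9%). In HCC827, 0 of 36 were called, where 0 of all 13849 promoter regions were called, so that count says nothing about the pathway. R-spondin promoters were in the PC9 table alone, with 2 regions of 2 genes, of which 1 rose. TCF7L2, a TCF/LEF factor, and TLE3, a co-repressor that binds these factors, each had a promoter region lower in 3 lines, and were named for that. They were 2 of the 30 listed genes with a tested promoter in at least 3 lines, 6.67%, where 4.14% of 12645 genes had one, and none of the list had one higher in 3 lines against 5.43% of all. The TLE3 region near chr15:70093470-70093971 fell by 1.00 in PC9, fell by 2.196 in H1975 and fell by 0.96 in HCC2935, while another TLE3 promoter region rose by 1.67 in H1975. TCF7L2 regions fell by 0.72 in PC9 and by 0.46 in H1975, and 2 fell by 0.76 and 0.43 in HCC2935, not all at the same start. No alternative was run on these 2 genes.

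AZD5153 added to DTP cells gave different LGR5 values by line. This contrast shares its DTP libraries with the one above, and a change with AZD5153 and one with osimertinib withdrawal cannot be told apart. In PC9 intron 16 held 2.44, 1.33 and 3.73 CPM in the combo group against 6.32, 6.19 and 6.76 CPM in DTP, a log2 difference of -1.35 (SE 0.320) with separate groups. The region was chosen for its high DTP values, which favours a lower value in any group set against them. In HCC827 combo libraries held 7.67, 11.2 and 17.4 CPM against 25.8, 26.0 and 43.4 CPM, a log2 difference of -1.37 (SE 0.417), also with separate groups. It was -1.39 with the replicate block and -1.50 with libraries summed. In H1975 combo libraries held 24.0, 17.5 and 21.6 CPM (log2 0.25), and in HCC2935 19.7, 22.6 and 15.5 CPM (log2 0.01). In these 2 lines the combo and DTP libraries overlapped. Whether the lines differ was not tested.

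Intron 6 of LGR5 held 4.88, 3.98 and 5.06 CPM in PC9 combo cells, a log2 difference of -0.64 that ran from -0.70 to -0.53 with 1 library left out. It was 0.29 in H1975, -0.27 in HCC2935 and -1.17 in HCC827, where the replicate block gave -1.15. In PC9, 11 of 37 members were called in combo against DTP, 4 higher and 7 lower (22.3% of all regions, 30.7% of annotated). Of the lower ones, 2 were at LGR5 and are not read as results, since the choice by DTP values favours that direction. The LGR5 intron 6 call was lost with any 1 library of the 2 groups left out. It was also lost by DESeq2, without a filter, with libraries summed and with regional medians removed. With libraries summed 3 members were called (8.11% of all). In H1975, 16 of 41 were called, 8 each way (21% of all, 32.5% of annotated), and 2 with libraries summed (5.97% of all), while scaling by library size alone gave 5 higher and 9 lower. In HCC827, 0 of 13 were called and 0% of all, with 2.63% of all at an unadjusted p under 0.05, and with the replicate block 0 members and 0.0304% of all. In HCC2935, 9 of 42 were called, 1 higher and 8 lower (8.31% of all, 16.2% of annotated).

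Of the ZNRF3 regions, 1 of 3 was lower in PC9 and 2 of 5 in HCC2935, at different sites, and 1 of 7 was higher in H1975. In PC9 its intron 1 region chr22:28894171-28894672 fell from 9.23, 8.51 and 7.76 CPM in DTP to 1.71, 2.39 and 3.46 CPM in combo cells, by 1.76 (SE 0.303, adjusted p 2.52e-08). In HCC2935 chr22:28983654-28984155, annotated 2 to 3 kb from a start, fell from 6.65, 6.29 and 7.25 CPM to 2.97, 1.87 and 2.62 CPM, by 1.45 (adjusted p 0.000341). RNF43 had 5 of 10 regions higher and 1 lower in H1975, 2 of 6 higher in PC9, and 2 of 8 lower in HCC2935. One in the TSPOAP1-AS1 intron, chr17:58377206-58377707, fell in HCC2935 from 15.8, 14.2 and 14.3 CPM to 5.95, 6.77 and 5.44 CPM, by 1.27 (adjusted p 6.73e-06). The LGR6 intron 1 region that was lower in DTP than in control cells was higher in combo than in DTP cells. It held 10.4, 12.2 and 11.5 CPM in H1975 (log2 0.92, adjusted p 9.00e-08) and 7.07, 6.63 and 5.86 CPM in PC9 (log2 1.20, adjusted p 0.000450). Both contrasts use the same DTP libraries, so low DTP values favour opposite signs, and a return is not read from them.

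With AZD5153 alone LGR5 intron 16 was at a low level. Libraries held 1.44, 0.928 and 1.17 CPM in PC9 (log2 -0.37 against control) and 0.258, 0.348 and 0 CPM in H1975 (-0.06), on few counts. Intron 6 held in H1975 2.97, 3.83 and 2.85 CPM against 1.86, 1.21 and 1.08 CPM (log2 1.20), while the 338 regions in its 10 Mb of chromosome 12 had a median of -0.36. In PC9 it held 10.5, 8.12 and 7.51 CPM (log2 0.84), and without control replicate 3 the difference was 0.56.

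Across the 6 genes, 13 of 37 members were called in PC9 with AZD5153 alone, 4 higher, of which 1 was at LGR5, and 9 lower (25.8% of all regions, 34.4% of annotated), and 5 members with libraries summed (14.1% of all). In H1975 27 of 41 were called, 10 higher, of which 1 was at LGR5, and 17 lower (58.1% of all, 74.6% of annotated), and 23 with libraries summed (48.2% of all). The split was 15 and 16 when scaled by library size alone. The LGR5 calls in these counts reuse the controls that chose the gene and are not read as results. In H1975, 6 of 10 regions assigned to RNF43 were lower and 1 higher, where 31.4% of all tested regions were lower and 26.7% higher. Of these, 2 lie in TSPOAP1-AS1. The intron site chr17:58377206-58377707 fell from 13.1, 16.01 and 10.8 CPM to 0.258, 1.05 and 0.799 CPM, by 4.27 (SE 0.389, adjusted p 4.15e-41). The exon site at chr17:58394491-58394992 fell to 0.903, 0.348 and 0.570 CPM, by 3.60. The ZNRF3 promoter rose there to 34.1, 29.3 and 32.3 CPM (log2 1.18, adjusted p 7.79e-23). Of 77 promoter regions of the other Wnt pathway genes, 44 rose and 12 fell in this contrast (median log2 0.42), so a rise was not particular to ZNRF3. In the same line the LGR6 promoter at chr1:202210306-202210807 fell to 3.35, 1.22 and 3.54 CPM, by 1.67. The median over the 1297 regions of that 10 Mb of chromosome 1 was -0.49 in this contrast. In PC9, LGR6 intron 6 fell to 1.91, 4.64 and 2.35 CPM, by 2.16 (adjusted p 1.80e-17), and AXIN2 intron 3 at chr17:65542560-65543061 to 3.59, 4.17 and 1.64 CPM, by 2.04.

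The effect of AZD5153 in DTP cells was set against its effect in drug-free cells by an interaction term in PC9 and H1975. The term holds DTP against control with a minus sign, so LGR5 is again described only. For intron 6 it was -1.48 in PC9 (SE 0.346) and -0.91 in H1975 (SE 0.364), and for intron 16 it was -0.98 and 0.30. In PC9, 9 of 37 members were called, 5 higher and 4 lower, of which 1 was at LGR5 (13.8% of all regions, 20.1% of annotated), and 2 with libraries summed (4.81% of all). In H1975, 24 of 41 were called, 16 higher and 8 lower, of which 1 was at LGR5 (42.5% of all, 63.1% of annotated), and 14 with libraries summed (30.9% of all). The split was 9 and 12 when scaled by library size alone. The LGR5 calls are part of these counts and are not read as results. In H1975 the LGR5 intron 6 call was lost by DESeq2, without a filter and with libraries summed. It was also lost without control replicate 2 or 3, or without replicate 2 of DTP, AZD5153 or combo.

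The largest interactions in H1975 were at regions assigned to RNF43. The exon site at chr17:58394491-58394992 differed by 4.02 (SE 0.501, adjusted p 1.23e-15) and the intron site at chr17:58377206-58377707 by 3.78 (SE 0.421, adjusted p 1.84e-22). Their combo libraries held 2.36, 1.87 and 2.36 CPM and 6.82, 6.23 and 4.62 CPM, above the low levels with AZD5153 alone. The exon site was also lower in DTP than in control cells, and at that site combo and DTP libraries overlapped. A fall in DTP cells enters the term with a plus sign and favours a positive value. LGR6 intron 3 differed by -1.62 (adjusted p 7.91e-05), where it rose by 1.22 with AZD5153 alone and fell by 0.40 in combo against DTP, the latter a call lost by DESeq2, with libraries summed and without DTP replicate 2, combo replicate 1 or combo replicate 2. In PC9 the AXIN2-assigned region in CEP112 differed by -1.71 (adjusted p 0.000246). This region and LGR6 intron 3 of H1975 had risen in DTP cells, which favours a negative value.

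**Figure D5:**
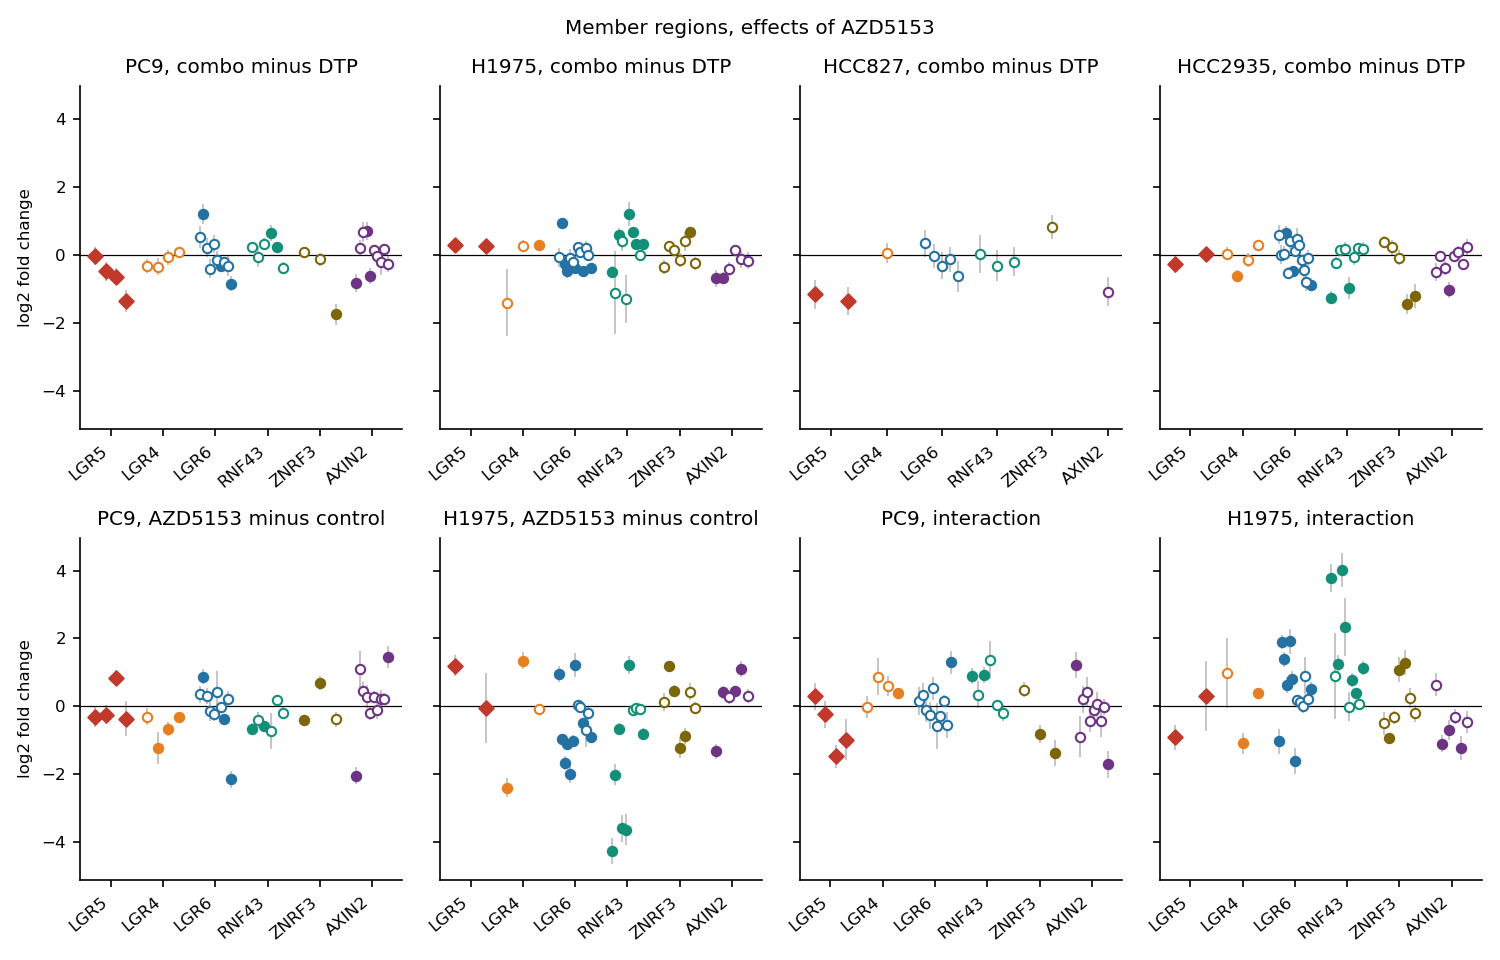
Log2 differences with 1 SE for each member region, by gene: combo against DTP in the 4 lines, and AZD5153 against control and the interaction in PC9 and H1975. Filled circles were called at an adjusted p under 0.05, open circles were not, and diamonds are LGR5 regions, shown as a description. In combo against DTP, LGR5 intron 16 lies at -1.35 in PC9 and -1.37 in HCC827, and RNF43 holds the largest interactions, up to 4.02.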

How the data were processed

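ATAC-seq was measured in 42 libraries of 4 lines, in 14 groups of 3 that the labels call biological triplicates. The authors deposited, per line, whole-number read counts per region of 502 bases and a subset of those regions with gene assignments, and per library a peak list with −log10 q-values. Per the labels the build is hg38 and the submitters' processing notes name BWA 0.7.17, SAMtools 1.9, deepTools 3.4, MACS2 2.2.6, featureCounts 2.0.0 and ChIPseeker 1.29.1, with no roles given. No source used here states the filter behind the annotated subset. A gene assignment is that of the nearest annotated start and not evidence of regulation.

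Counts of each whole table were tested with edgeR 4.0.16 (R 4.3.3; TMM scaling, filterByExpr, quasi-likelihood F test, all groups of a line in 1 fit) and p-values were adjusted by Benjamini-Hochberg over all regions tested: 82309 in HCC827, 126506 in PC9, 154179 in HCC2935 and 191202 in H1975. A region was called at an adjusted p under 0.05. SEs are Wald SEs. All members were tested except 1 RNF43 region of HCC827 that did not pass the count filter, 133 of 134. CPM are counts scaled to the TMM-adjusted sum over the regions tested in the line. That sum is below the library total over all regions, by a share that differs between lines. The script was tested on simulated data, and DESeq2 1.42.0 was an alternative. Python 3.11.15 with scipy 1.17.1 gave the intervals. Combo and DTP contrasts share DTP libraries, and DTP and AZD5153 contrasts share controls.

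Named were every LGR5 region, each other gene's strongest promoter, and up to 2 called regions per direction, line and contrast with separated libraries (no separation asked for the interaction). Regions matched to these in other lines were added after values were seen. Members and lists were chosen with earlier results of these data known. Libraries with the same replicate number deviated together in HCC827 (r 0.257 to 0.827, 9 pairs), so blocked values stand beside HCC827 counts of calls and LGR5 values. They did not in PC9 (-0.01 to 0.013) or H1975 (-0.062 to 0.015). In HCC2935 the pairs were mixed (-0.074 to 0.206) around the threshold of 0.1, so pairing there was not settled. LGR5 p-values were set aside, since every contrast reuses libraries that chose the gene. Libraries held 1724680 to 4242868 counts in HCC827, 3989287 to 5193390 in PC9, 3968690 to 8066287 in HCC2935 and 6200672 to 10062505 in H1975.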

Additional observations from a re-analysis of the deposited data

Results flagged for a closer look

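By an interaction term in edgeR, the response to AZD5153 differed between DTP and drug-free cells at the regions below that lie outside LGR5. The LGR5 values beside them are a description only. In PC9 the interaction was 1.30 at LGR6 intron 6 (adjusted p 0.00188, lost with libraries summed), -1.48 at LGR5 intron 6, 1.21 at AXIN2 intron 3, chr17:65542560-65543061 (adjusted p 0.0134, lost by DESeq2, with libraries summed and without AZD5153 replicate 3 or combo replicate 1 or 3), and -1.71 at the AXIN2-assigned region in CEP112 (adjusted p 0.000246). In H1975 it was -1.62 at LGR6 intron 3, -0.91 at LGR5 intron 6, 3.78 and 4.02 at 2 distal RNF43 regions, and -1.23 at an AXIN2 promoter region, chr17:65561891-65562392 (adjusted p 0.00170). The LGR5 values are not independent of the choice of the gene. The term holds DTP against control with a minus sign, which favours a negative value there. The same sign favours a positive value at regions lower in DTP cells, such as AXIN2 intron 3 of PC9 and the RNF43 exon site. It favours a negative value at those higher in DTP cells, such as the CEP112 region and LGR6 intron 3 of H1975.

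At 3 sites every DTP library lay above every control library in 1 line and below in another, and the differences between lines were not tested. Separation in either direction was common, at 56.1% of all tested regions in H1975, 47.2% in HCC2935, 41.6% in PC9 and 14.3% in HCC827. The share of all sites with opposite directions was not counted, so nothing particular to these sites is read from it. The LGR6 intron 6 site had log2 differences of 2.91 in HCC2935, 1.21 in HCC827, 0.57 in H1975 and -0.34 in PC9. The inner LGR4 promoter region had -0.50 in PC9 and 1.00 in H1975, and the RNF43 promoter 0.21 in PC9 and -0.24 in HCC2935. The RNF43 windows of PC9 and HCC2935 overlapped only in part. Both RNF43 values, and those of LGR6 in PC9 and HCC827, did not pass the edgeR test without a replicate block.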

How the results depend on the processing

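Counts of called members below are in the order DTP against control (outside LGR5), combo against DTP, AZD5153 against control and interaction. With a mean of at least 50 counts asked for, PC9 gave 4, 2, 5 and 3 and H1975 13, 9, 12 and 9, with fewer members tested, and HCC2935 gave 6 in DTP. With libraries summed and the dispersion of HCC2935, PC9 gave 10, 3, 5 and 2 (19.4%, 8.11%, 14.1% and 4.81% of all regions). H1975 gave 2 in combo and 14 in the interaction (5.97% and 30.9% of all), and HCC2935 5 in combo (5.36% of all). HCC827 gave 3 in DTP and 2 in combo. Of all its 82309 regions, 6990 rose and 3261 fell in DTP, and 421 rose and 2202 fell in combo. Its 2 combo calls were the LGR5 introns, which are a description only. DESeq2 gave 11 in DTP, 4 in combo and 8 with AZD5153 in PC9, 6 in combo in H1975 and 4 in combo in HCC2935. Without a filter PC9 gave 7 in combo and 7 with AZD5153, HCC2935 4 in combo and H1975 7 in combo. The replicate block gave 2 in DTP in HCC827 and left its combo count at 0. In PC9 and H1975, where the numbers mark no pairing, it gave 17, 11, 13 and 9 and 29, 15, 26 and 24. In HCC2935, where pairing was not settled, it gave 20 and 11. The cause of these changes was not tested, except where fewer members entered. Calls over all regions changed with the setting too. For DTP against control in PC9, 11724 were higher and 13437 lower of 126506 by DESeq2. They were 17656 and 19561 of 502962 without a filter, and 3388 and 4352 of 21207 at a mean of 50 counts. No count here is read as a result about the axis.

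With 1 library left out, DTP counts ran from 14 to 18 in HCC2935, 0 to 0 in HCC827, 13 to 15 in PC9 and 26 to 29 in H1975. Combo counts ran from 4 to 6 in HCC2935, 0 to 0 in HCC827, 6 to 8 in PC9 and 7 to 13 in H1975. AZD5153 counts ran from 8 to 12 in PC9 and 24 to 27 in H1975, and interaction counts from 6 to 9 and 20 to 23. The LGR5 intron 16 log2 fold change ran from 3.63 to 4.22 in HCC2935, 4.04 to 4.85 in HCC827, 1.58 to 2.47 in PC9 and 6.25 to 6.88 in H1975, with the replicate block was 3.92, 4.35, 2.04 and 6.44, and by library size alone was 6.63 in H1975. That scaling moved the H1975 median of all regions to 0.22 in DTP, -0.11 in combo, 0.18 with AZD5153 and -0.32 in the interaction, and the PC9 interaction median to -0.11. The sign reversed at the upstream LGR5 region in PC9 without control replicate 2 (-0.0172, where leaving out single libraries gave values up to 0.501) and at the RNF43 promoter of H1975 in AZD5153 against control by library size alone (0.16). Of the 188 single-region results, the other alternatives left 1592 values on the same side and 90 weaker, 31 stronger and 1 reversed. HCC827 was shallowest and most variable, and 18 of its regions were called in DTP, against 3191 with the block.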
